A study of Mus musculus with 4 samples.

Results

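The genes described here are 36 mouse genes of the lysosome: 18 hydrolases, 3 activators and lumenal cofactors of hydrolases, 7 membrane proteins, 7 subunits of the vacuolar proton pump (V-ATPase) and the transcription factor Tfeb. They were chosen by name, and their probes were found by the RefSeq accession that the array assigns to each probe. The array named 20887 genes in this way, and the 36 genes had 49 of its 55681 probes. All 36 could be tested, because each had at least 1 probe well above background in 1 genotype on at least 3 of the 4 arrays; 3 further probes, of Fuca1, Gm2a and Arsb, were too dim and were not used. The 36 genes lie on 15 chromosomes, with Lamp2, Ids and Atp6ap1 on the X chromosome.

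RNA came from cultures of APPswe/PS1dE9 mice and of wild-type (WT) mice, both on the C57BL/6 strain. APPswe/PS1dE9 mice carry a human-mouse amyloid precursor protein with the Swedish mutation and a human presenilin 1 that lacks an exon, and are used as a model of familial Alzheimer's disease; in the commonly used line the prion protein promoter drives both. Neural precursors from the telencephalon of embryos of day 13 grew for 5 days as neurospheres with EGF and FGF2 at 20 ng/ml each, and were then plated for 7 days to differentiate with both growth factors withdrawn. Each of 4 two-colour Agilent arrays held amplified RNA (100 ng input) of 1 culture of each genotype; The dyes were swapped, so that Cy3 labelled the APPswe/PS1dE9 RNA of replicates 1 and 2, and Cy5 that of replicates 3 and 4. Nothing in the sample descriptions says whether the 4 cultures of a genotype came from separate litters. The p-values below rest on the spread among these 4 arrays that is left after a term for dye orientation is fitted. The fit draws each gene's spread towards that typical of all features (2 residual and 4.13 prior degrees of freedom). The p-values measure no spread beyond these 4 arrays. The probe for mouse App had log2 ratios of 0.23, 0.27, 0.00 and -0.03 (adjusted p = 0.281); whether it detects the transgene is not known, so it is no check of the genotype.

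Lysosomes break down proteins, lipids, glycogen and glycosaminoglycans delivered by endocytosis, phagocytosis and autophagy. Their hydrolases work at acid pH, which the V-ATPase maintains by pumping protons across the membrane, and several need a lumenal cofactor that presents the lipid to the enzyme. TFEB binds a palindromic element in the promoters of many of these genes and raises their transcription when it enters the nucleus. In brain, microglia and astrocytes have an active lysosomal system, and inherited loss of many of these enzymes causes neurodegenerative storage disease.

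Values are log2 ratios of APPswe/PS1dE9 over WT, written for replicates 1, 2, 3 and 4 in that order. The fitted log2 ratio follows, ± its standard error from the fit with the dye term. That error leaves out differences between the dye orientations, so it can be small for a gene whose orientations disagree. Psap, for example, has a standard error of 0.06, while the standard deviation of its 4 arrays is 0.34. A gene was called when its adjusted p (limma, Benjamini-Hochberg over all 20591 features tested) was under 0.05.

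Some of the hydrolase and membrane protein genes, and all 3 genes for activators and cofactors, were higher in APPswe/PS1dE9 cultures. None of the 7 proton pump genes among these 36 passed the test. With 7 genes, that is not far from the share over all features, and 2 of 13 further pump genes were higher. Of the 36 genes, 12 were higher and 0 were lower, against 8.25% of all features higher and 2.28% lower. These shares are not matched for brightness: the median log2 intensity was 10.83 for the 36 genes and 9.20 for all features. Of the 20591 features, 13664 were named genes. The 12 comprised 6 of 18 hydrolases, all 3 activators and cofactors, 3 of 7 membrane proteins, 0 of 7 pump subunits, and not Tfeb. One of them, Laptm5, passed the filter on background through APPswe/PS1dE9 RNA only. Before adjustment 19 of the 36 had p under 0.05 as higher and 0 as lower, against 15.8% and 9.74% of all features. The median fitted log2 ratio was 0.18 for hydrolases, 0.34 for activators and cofactors, 0.25 for membrane proteins and 0.08 for pump subunits, against 0.01 over all features; the difference between these groups was not tested. The log2 ratio was above 0 on all 4 arrays for 18 of the 36 genes, and for 16.9% of all features. The changes were small: the 12 called genes had fitted log2 ratios of 0.25 to 1.12 with a median of 0.33, and only Laptm5 reached a 2-fold difference, which 204 features did.

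The count of called genes depended on the arrays and on the processing. Without replicate 3 only Gusb was called and without replicate 4 only Laptm5, when 2.52% and 1.79% of all features were higher; without replicate 2 the count was 9, with 8.45% of features higher. With each array centred on its median in place of the intensity-dependent (loess) correction, 3 of the 36 genes were higher (Gusb, Grn and Laptm5), while 6.35% of all features were higher and 6.35% lower. In that setting the fit gave the genes a common standard error of 0.118, so the estimate of spread changed as well as the normalization.

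**Figure D1:**
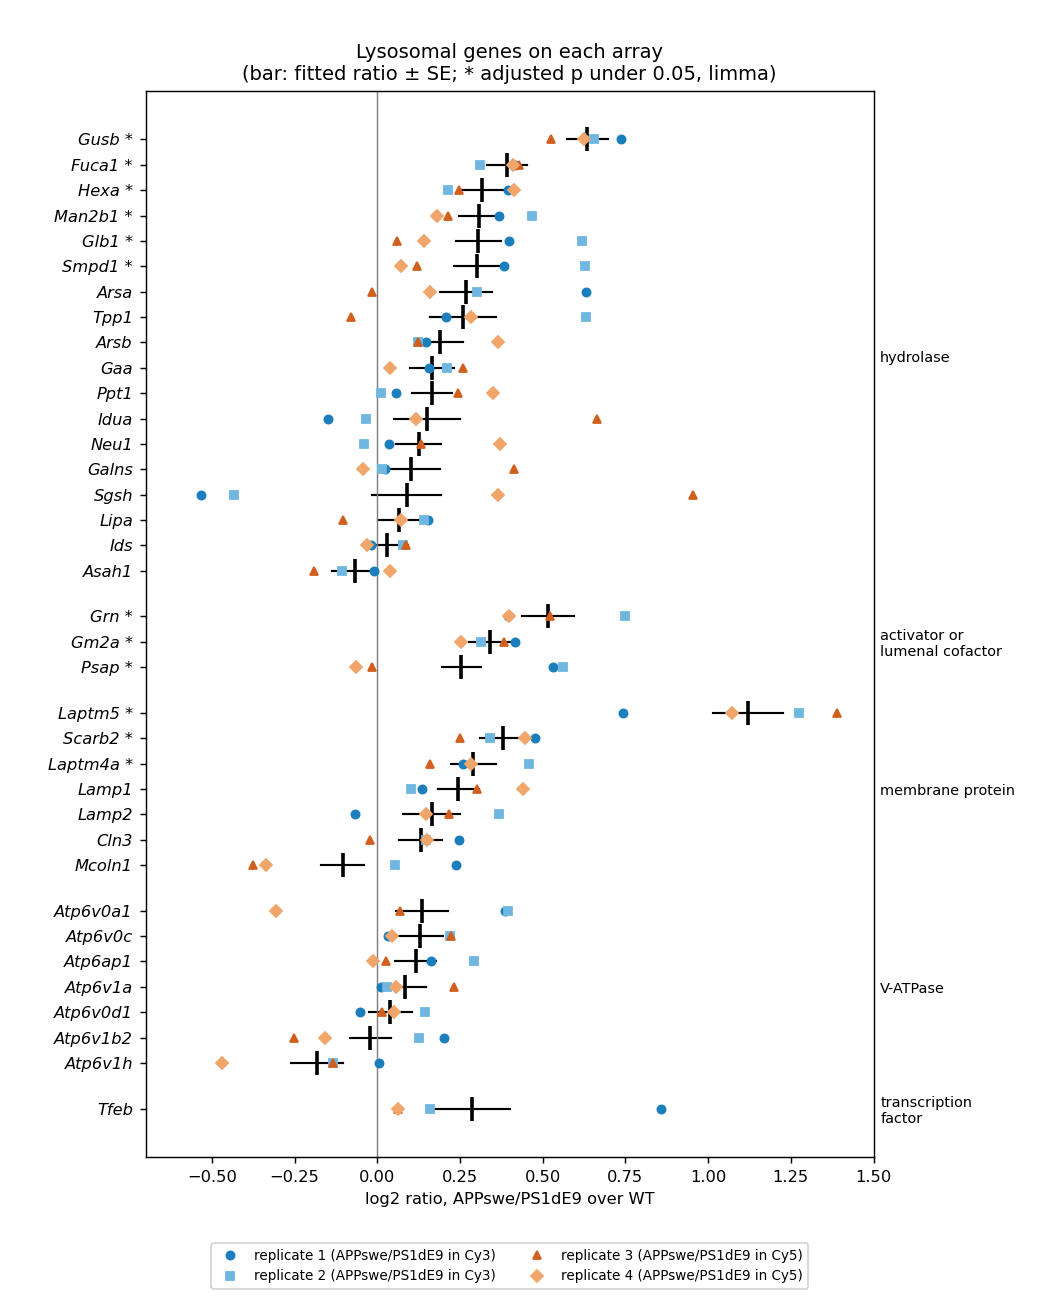
Log2 ratio of APPswe/PS1dE9 over WT (x axis) for the 36 lysosomal genes (rows, by role group), with 1 symbol per array, the fitted value as a vertical tick and its standard error as a horizontal bar; an asterisk marks adjusted p under 0.05. Of the 12 called genes, 11 lie right of 0 on all 4 arrays, and the pump subunits lie on both sides of 0.

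All 8 neuronal, 8 astrocyte and 6 oligodendrocyte markers examined were well above background in both genotypes on all 4 arrays, and several markers differed between the genotypes. Over all features 8.25% were higher and 2.28% lower. Of 14 markers of microglia and macrophages, 11 could be tested and 10 were higher, with a median log2 ratio of 2.07 that ran from 1.81 to 2.09 on the single arrays. Their summed signal was 12667 to 16840 in APPswe/PS1dE9 RNA and 8881 to 10926 in WT RNA. The sum is over all 11 tested markers on a linear scale, so the brightest probes weigh most in it and it differs less than the median ratio. Among them Cx3cr1 and C1qa were well above background in WT RNA on 2 of 4 arrays. Tyrobp, Trem2 and Tmem119 were so on 1, and the others on all 4. C1qa had no value on replicate 4, so the median of 1.81 and the sum on that array leave it out. Itgam, at 0.11 ± 0.10, was not called, P2ry12 and Ptprc were not above background in enough arrays, and Cd68 was not matched to a probe. Astrocyte markers were higher for 5 of 8 (median 0.37; summed signal 139727 to 154433 in APPswe/PS1dE9 and 101188 to 123812 in WT). Of 8 neuronal markers 0 were higher and Dcx and Elavl3 were lower, and of 6 oligodendrocyte markers 0 were called. Markers of choroid plexus and ependyma were higher for 5 of 6, with a median of 1.11 (summed signal 8987 to 13456 against 4791 to 5803). Of 6 markers of neural progenitors and proliferation, Nes was higher and Hes5 lower. Of 5 endothelial markers, 2 could be tested and Flt1 was higher. Flt1 was well above background in APPswe/PS1dE9 RNA on 3 arrays and in WT RNA on 0, so it passed the filter through APPswe/PS1dE9 only. The cultures are mixtures, so more cells of a type and more RNA per cell cannot be told apart, and the part of these markers in the lysosomal differences was not tested.

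Among the hydrolases, Gusb had the largest ratio. Gusb, which encodes the beta-glucuronidase that trims glycosaminoglycans, had log2 ratios of 0.74, 0.65, 0.52 and 0.63, fitted as 0.64 ± 0.06 (1.55-fold, adjusted p = 0.0025). Its 10 spots make it the most heavily replicated of these probes on the array. All 4 arrays lay between 0.52 and 0.74, in both dye orientations.

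Fuca1, the alpha-L-fucosidase that removes fucose from glycoproteins and glycolipids, had 0.42, 0.31, 0.43 and 0.41 (0.39 ± 0.06, 1.31-fold, adjusted p = 0.0130). Hexa, the alpha subunit of the beta-hexosaminidase that cuts gangliosides, had 0.39, 0.21, 0.25 and 0.41 (0.32 ± 0.07, adjusted p = 0.0383). Man2b1, the lysosomal alpha-mannosidase, had 0.37, 0.47, 0.22 and 0.18 (0.31 ± 0.06, adjusted p = 0.0285). In these 3 genes the arrays of both orientations were on the same side of 0 and at least 0.18.

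Glb1 and Smpd1 passed the test with arrays that differed by orientation. Glb1, the lysosomal beta-galactosidase, had 0.40 and 0.62 on replicates 1 and 2 but 0.06 and 0.14 on replicates 3 and 4 (0.31 ± 0.07, adjusted p = 0.0414). Smpd1, the acid sphingomyelinase, had 0.38 and 0.63 against 0.12 and 0.07 (0.30 ± 0.07, adjusted p = 0.0452). For both, the arrays with APPswe/PS1dE9 in Cy3 were high and those with it in Cy5 were low. Without the dye term, neither was called (adjusted p = 0.140 and 0.148).

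The other 12 hydrolases did not pass. Arsa, which desulfates the myelin lipid sulfatide, had a fitted log2 ratio of 0.27 (adjusted p = 0.0918), and Tpp1, a peptidase lost in a childhood ceroid lipofuscinosis, 0.26 (adjusted p = 0.167). Arsb, a glycosaminoglycan sulfatase, was at 0.19, Gaa, which degrades glycogen, at 0.17 and Ppt1, which removes palmitate from proteins, also at 0.17. The iduronidase Idua was at 0.15, the sialidase Neu1 at 0.13, the sulfatase Galns at 0.10, the acid lipase Lipa at 0.07 and the iduronate sulfatase Ids at 0.03. Asah1, the acid ceramidase, was the lowest hydrolase with -0.01, -0.11, -0.19 and 0.04 (-0.07 ± 0.07, adjusted p = 0.596). Of these 12 fitted values 11 were above 0, against 53.4% over all features. With median centring Gaa, Neu1, Galns, Sgsh, Idua and Ids turned below 0. None of the 12 genes was called under more than 1 of the alternatives tried.

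Sgsh, which removes sulfate from heparan sulfate, varied most between arrays: -0.53, -0.43, 0.95 and 0.36, fitted as 0.09 ± 0.10 (adjusted p = 0.649). It was low on both arrays with APPswe/PS1dE9 in Cy3 and high on both with it in Cy5. A second Sgsh probe had -0.14, 0.15, 0.38 and 0.30, with a fitted log2 ratio of 0.17. For Idua the 2 probes ran in opposite directions across the orientations. The brighter one had -0.15, -0.03, 0.66 and 0.12, and the dimmer one 0.47, 0.71, 0.02 and -0.04. For these genes a single probe therefore does not settle the value on an array. Only 9 of the 36 genes had more than 1 probe in use, and among the called genes only Laptm5 did.

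All 3 activators and cofactors were higher. Grn encodes progranulin, which is cut into granulins in the lysosome and whose loss causes a neuronal ceroid lipofuscinosis. It had 0.40, 0.75, 0.52 and 0.40 (0.52 ± 0.08, 1.43-fold, adjusted p = 0.0128), with all 4 arrays above 0. Gm2a, the activator that presents the ganglioside to beta-hexosaminidase, had 0.42, 0.31, 0.38 and 0.25 (0.34 ± 0.06, 1.27-fold, adjusted p = 0.0240). Both were above 0 on every array.

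Psap, the precursor of the saposins that assist sphingolipid hydrolases, is the called gene whose arrays overlapped 0: 0.53, 0.56, -0.01 and -0.06 (0.25 ± 0.06, adjusted p = 0.0485). Within orientations its log2 ratio was 0.55 on replicates 1 and 2 and -0.04 on replicates 3 and 4, and without the dye term its adjusted p was 0.315. Its call therefore rests on the 2 arrays of 1 orientation.

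Of the membrane proteins, Laptm5 had the largest ratio, and the largest of all 36 genes. Laptm5 is a lysosomal membrane protein of blood-derived and microglial cells. Its log2 ratios were 0.74, 1.27, 1.39 and 1.07 (1.12 ± 0.11, adjusted p = 0.0023). The probe was well above background in APPswe/PS1dE9 RNA on all 4 arrays and in WT RNA on none. It therefore passed the filter only through the genotype in which it is high. Its call, here and under the alternatives, is given as a description. The difference is given as at least 2.17-fold higher, from the mean measured values of 7.49 against 6.37 on the log2 signal scale. A second probe of the gene, also not well above background in WT RNA on any array, had 0.87, 0.70, 0.75 and 0.47 (0.69 ± 0.08), at least 1.62-fold higher. With the scanner software's own processed signals the first probe's log2 ratio was 3.51 with no offset added to the signals. The 10 called microglial markers above were also higher. The median of the 11 tested ones was 2.09, 1.90, 2.00 and 1.81 on the single arrays, the last without C1qa. Their part in the Laptm5 difference was not tested.

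Scarb2, the receptor that carries glucocerebrosidase to the lysosome, had 0.48, 0.34, 0.25 and 0.45 (0.38 ± 0.07, adjusted p = 0.0214). Laptm4a, a small transmembrane protein of late endosomes and lysosomes, had 0.26, 0.46, 0.16 and 0.28 (0.29 ± 0.07, 1.22-fold, adjusted p = 0.0481). Both were above 0 on all 4 arrays.

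The main structural glycoproteins of the lysosomal membrane did not pass. Lamp1 had 0.14, 0.10, 0.30 and 0.44, all above 0, and was just outside the threshold (0.25 ± 0.06, adjusted p = 0.0607); with the strict filter, which tests fewer features, it was called (adjusted p = 0.0494). Lamp2, which also serves in chaperone-mediated autophagy, had -0.07, 0.37, 0.22 and 0.15 (0.17 ± 0.09, adjusted p = 0.296); a second probe, designed on another transcript of the gene, had 0.37, 0.08, 0.33 and 0.46 with a fitted value of 0.31. Cln3, a membrane protein mutated in juvenile ceroid lipofuscinosis, was at 0.13 (adjusted p = 0.274). Mcoln1, the cation channel that releases lysosomal calcium, was the lowest membrane protein with 0.24, 0.05, -0.37 and -0.34 (-0.10 ± 0.06, adjusted p = 0.370), above 0 on the arrays of 1 orientation and below it on those of the other.

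**Figure D2:**
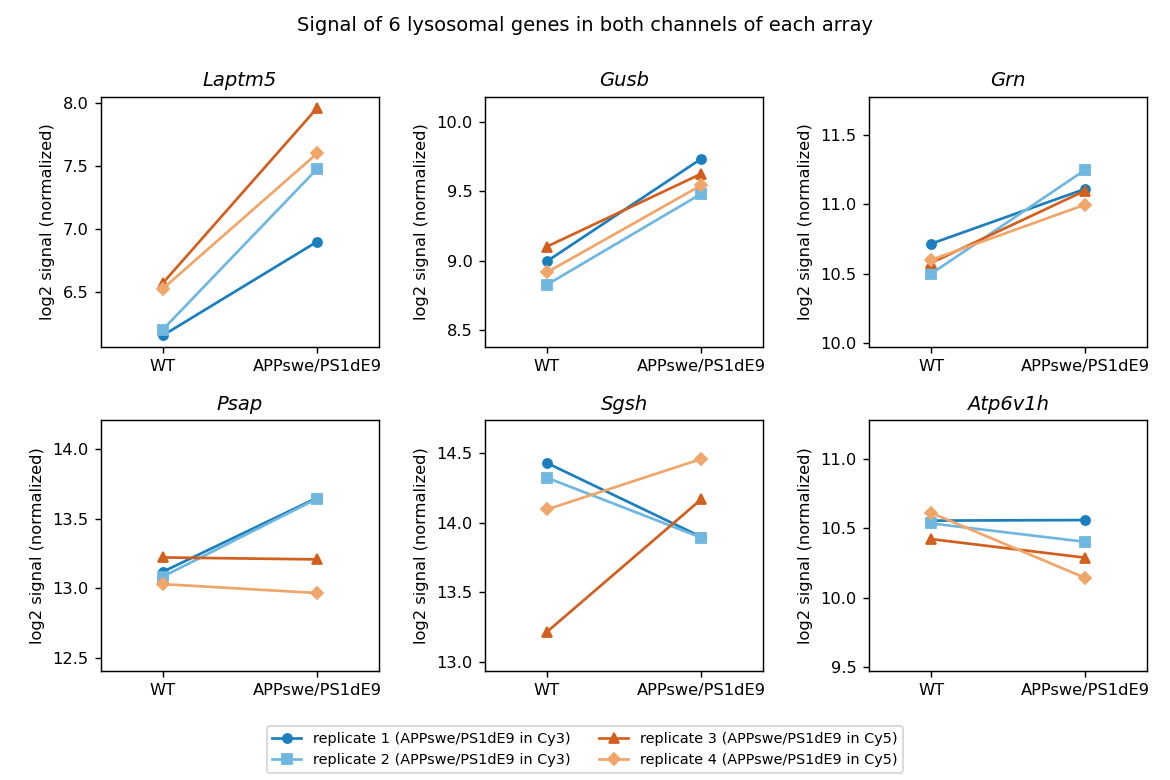
Normalized log2 signal (y axis) of Laptm5, Gusb, Grn, Psap, Sgsh and Atp6v1h in WT and APPswe/PS1dE9 RNA, with a line joining both channels of each of the 4 arrays; signals are compared within a gene only, and each panel has its own range. Laptm5 was on average at 6.37 in WT RNA, where it was not well above background, and at 7.49 in APPswe/PS1dE9 RNA, while Psap and Sgsh moved differently on replicates 1 and 2 than on replicates 3 and 4.

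None of the 7 pump subunits was called in either direction, and their fitted log2 ratios ran from -0.18 to 0.14. The highest was Atp6v0a1, the neuronal form of the large membrane-sector subunit, with 0.38, 0.39, 0.07 and -0.30 (0.14 ± 0.08, adjusted p = 0.346). Its arrays lay on both sides of 0. Atp6v0c, the proteolipid that forms the rotor ring, was at 0.13, Atp6ap1, an accessory assembly subunit, at 0.12 and Atp6v0d1, which joins the rotor to the stalk, at 0.04.

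In the cytosolic sector that hydrolyses ATP, the catalytic subunit Atp6v1a was at 0.08 and its partner Atp6v1b2 at -0.02. Atp6v1h, the regulatory subunit that couples the sectors, was the lowest with 0.00, -0.13, -0.13 and -0.47 (-0.18 ± 0.08, adjusted p = 0.212). The median of the 7 was 0.03, 0.14, 0.03 and -0.01 on the single arrays. With median centring it was -0.09, when the median of all features was -0.07. With standard errors of 0.06 to 0.08 at 4 arrays, a missed threshold does not show equal levels.

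Tfeb had 0.86, 0.16, 0.06 and 0.06 (0.29 ± 0.12, adjusted p = 0.191). Replicate 1 alone was far above the other arrays, and without replicate 2 the gene was called (0.46, adjusted p = 0.0066). Its probe was well above background in APPswe/PS1dE9 RNA on 3 arrays and in WT RNA on 4. TFEB is controlled largely by its movement into the nucleus, which an RNA level does not measure. Of 16 tested genes that act with or upstream of it, 1 was higher and 0 were lower (median -0.04), against 8.25% and 2.28% of all features. The called gene was the TFEB paralogue Tfe3, with 0.41, 0.39, 0.18 and 0.23 (0.30 ± 0.06, adjusted p = 0.0283). Mitf, the other tested paralogue, was at -0.14, and the genes of the mTORC1, Rag and Ragulator complexes that hold TFEB in the cytoplasm lay between -0.10 and 0.03.

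Since TFEB is known for binding the palindromic CLEAR element of lysosomal promoters, the promoter windows of these genes were searched for that element, which spans 10 bases, for its inner part TCACGTGA and for the E-box CACGTG, which lies within both. Windows came from RefSeq (GRCm38.p6) and held 300 bases, from 250 before to 50 after each gene's start; 32 of the 36 genes had one, and Asah1, Galns, Atp6v1b2 and Atp6v1h did not. Psap, Cln3, Atp6v0c and Tfeb had 2 or 3 windows at different starts, which made 38 windows in all, and a gene was counted if any of its windows held the motif. All these motifs are their own reverse complement, so 1 search covers both strands. The full CLEAR element was in 1 of 32 genes (3.12%) and in 0.37% of all 27025 genes, TCACGTGA in 4 (12.5%, against 1.12%), and CACGTG in 9 (28.1%, against 8.09%). The 9 were Arsa, Gaa, Glb1, Sgsh, Cln3, Lamp1, Mcoln1, Atp6v0d1 and Atp6v1a.

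The 5 genes shown first carry the motif, and are printed because they include the 3 membrane proteins with it, a pump subunit and the only called gene with it. Each line gives the 150 bases before the start, 5′ to 3′ in the direction of transcription, with matches to any of the 3 motifs in capitals.
Cln3, chr7:126583237-126583386, minus strand: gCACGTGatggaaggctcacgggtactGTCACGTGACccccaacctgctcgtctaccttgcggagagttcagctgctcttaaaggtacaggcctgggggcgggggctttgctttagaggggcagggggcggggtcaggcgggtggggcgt
Mcoln1, chr8:3500369-3500518, plus strand: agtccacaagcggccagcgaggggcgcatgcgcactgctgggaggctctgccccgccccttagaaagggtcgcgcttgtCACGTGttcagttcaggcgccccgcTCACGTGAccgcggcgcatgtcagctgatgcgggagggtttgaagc
Lamp1, chr8:13159011-13159160, plus strand: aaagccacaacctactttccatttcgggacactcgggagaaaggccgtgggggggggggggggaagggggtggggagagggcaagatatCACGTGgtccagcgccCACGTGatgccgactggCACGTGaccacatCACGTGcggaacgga
Atp6v1a, chr16:44139260-44139409, minus strand: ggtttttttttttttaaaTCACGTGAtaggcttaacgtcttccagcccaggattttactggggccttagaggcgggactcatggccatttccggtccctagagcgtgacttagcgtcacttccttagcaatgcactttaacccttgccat
Glb1, chr9:114400928-114401077, plus strand: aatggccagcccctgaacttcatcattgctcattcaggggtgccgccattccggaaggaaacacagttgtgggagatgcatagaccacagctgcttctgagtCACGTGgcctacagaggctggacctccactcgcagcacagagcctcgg

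Lamp1 held 4 E-boxes, whose first bases lay 61, 45, 28 and 15 bases before the start. Cln3 and Mcoln1 each held an E-box and a longer match. The Cln3 matches lie in the window printed, and its window at another start held none of the 3 motifs. Of these genes Glb1 was called, with an E-box 48 bases before the start.

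The next 3 lines are the genes with the largest fitted ratios among the 36. None of them holds the motif.
Laptm5, chr4:130913166-130913315, plus strand: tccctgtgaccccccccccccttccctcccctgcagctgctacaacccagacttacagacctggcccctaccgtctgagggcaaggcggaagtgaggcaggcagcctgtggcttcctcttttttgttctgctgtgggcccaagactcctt
Gusb, chr5:130003050-130003199, minus strand: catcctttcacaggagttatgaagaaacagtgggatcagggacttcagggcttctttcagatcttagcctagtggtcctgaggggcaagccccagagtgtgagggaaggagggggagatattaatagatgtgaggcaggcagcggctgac
Grn, chr11:102430357-102430506, plus strand: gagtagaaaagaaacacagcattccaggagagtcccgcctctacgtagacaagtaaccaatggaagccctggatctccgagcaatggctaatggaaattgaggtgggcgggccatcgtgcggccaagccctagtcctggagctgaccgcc

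Of the 12 called genes, all with a window, 1 held CACGTG and 0 held TCACGTGA; of the 20 other genes with a window, 8 held CACGTG and 4 held TCACGTGA. The 9 genes with the E-box had fitted log2 ratios of -0.10 to 0.31 with a median of 0.13, and the 23 without it 0.03 to 1.12 with a median of 0.26. These are descriptions of the letters in a short window, with no test, and say nothing of whether TFEB was bound.

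**Figure D3:**
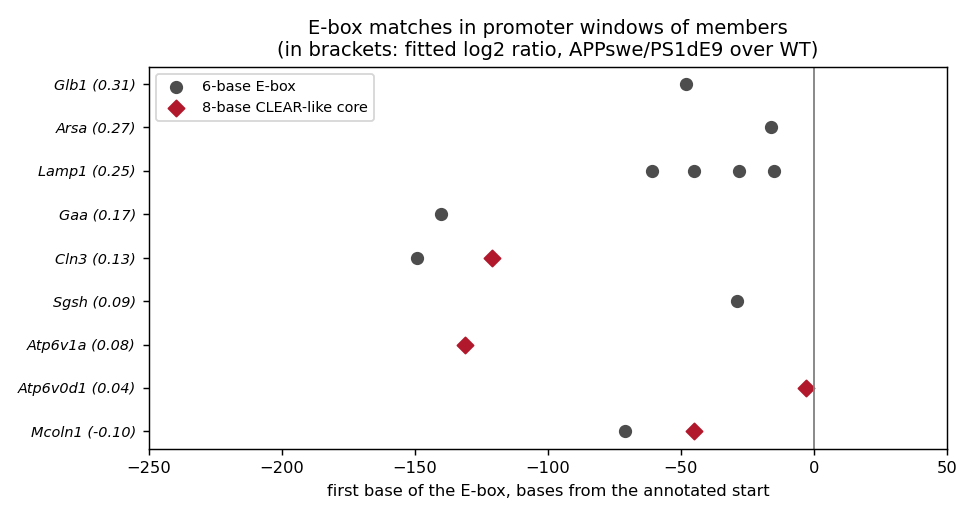
Position of the first base of each E-box, in bases from the annotated start (x axis), in the promoter windows of the 9 genes that hold one (rows, with the fitted log2 ratio in brackets); diamonds mark E-boxes inside a longer palindromic match. Matches lie between 149 and 3 bases before the start, and Lamp1 holds 4.

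Other genes of the same pathway were counted in the same way, where 8.25% of all features were higher and 2.28% lower. In lists this short, counts this small are not far from those shares, and they were not tested. Of 16 further hydrolases and lumenal proteins tested, 3 were higher and 0 lower, with a median of 0.11. The heparan-degrading Naglu was at 0.47 (adjusted p = 0.0106), the acid phosphatase Acp5 at 0.44 (adjusted p = 0.0190) and Ctsa, which protects beta-galactosidase, at 0.31 (adjusted p = 0.0356). Acp5 is also expressed strongly by macrophages, whose markers are given above.

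Of 18 further membrane proteins tested, 2 were higher (Sidt2 at 0.46 and the tetraspanin Cd63 at 0.29) and 1 was lower (the transporter Mfsd8 at -0.31), with a median of 0.04. Of 13 further pump subunits 2 were higher and 0 lower, with a median of 0.08. The first was Tcirg1, the large membrane-sector subunit typical of osteoclasts and other macrophage-lineage cells, with 0.78, 0.61, 0.53 and 0.62 (0.63 ± 0.06, adjusted p = 0.0031), and the second was Atp6v1g2 at 0.26 (adjusted p = 0.0469). The fitted log2 ratio of Tcirg1 was above that of each of the 7 subunits described above. Of 10 genes for mannose 6-phosphate sorting and enzyme maturation, 2 were higher: Sumf1, which activates the sulfatases, at 0.38 (adjusted p = 0.0313) and Cln6 at 0.33 (adjusted p = 0.0270).

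**Figure D4:**
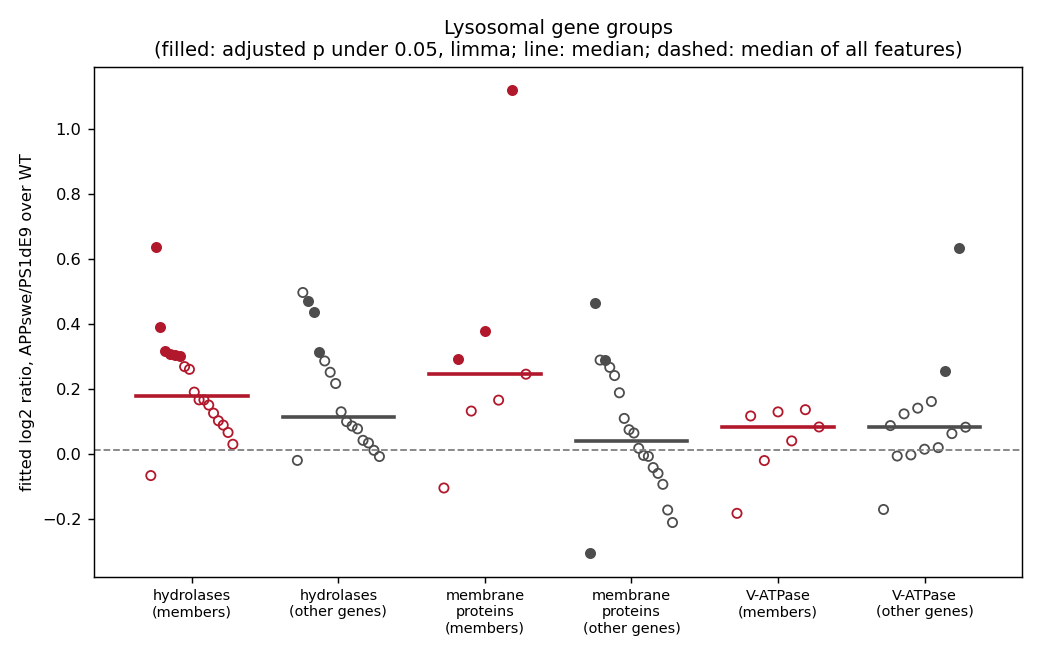
Fitted log2 ratio of APPswe/PS1dE9 over WT (y axis) of the hydrolases, membrane proteins and pump subunits among the 36 genes (members, red) and of other genes of the same kind (grey); filled points have adjusted p under 0.05, solid lines are group medians, the dashed line is the median of all features, and position within a group has no meaning. Medians of the 36 genes' groups are 0.18, 0.25 and 0.08, and those of the other genes 0.11, 0.04 and 0.08.

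The arrays were also compared within dye orientation and within matched sex. On replicates 1 and 2 alone, 0 of the 36 genes were called (195 features, 0.947%, were higher), and on replicates 3 and 4 alone 5 were (8.39% of features were higher). The median log2 ratio of hydrolases was 0.15, 0.18, 0.17 and 0.17 on the single arrays, and of membrane proteins 0.25, 0.34, 0.22 and 0.28. No dye term of the 36 genes was itself called; the lowest adjusted p was 0.130, for Sgsh.

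Xist and Eif2s3y, read only to compare the sex of the embryos, showed that the channels of replicates 1 and 3 differed in sex in opposite directions (Xist at -2.29 and 2.74) and those of replicates 2 and 4 did not (-0.32 and -0.21). On replicates 2 and 4 alone Laptm5 was the only one of the 36 called (1.17, adjusted p = 0.0066), with 2.28% of all features higher, and Gusb was at 0.64 (adjusted p = 0.0577). The X-linked genes were at 0.26 for Lamp2, 0.02 for Ids and 0.14 for Atp6ap1 on those arrays.

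With the scanner software's processed signals 3 of the 36 genes were higher (Gusb, Fuca1 and Laptm5; 4.5% of all features), with a smaller normexp offset 7 (7.2%), without the filter on dim probes 4 (2.59%), and without the dye term 7 (6.63%). With the strict filter 12 of 34 were higher (8.83%), of which 11 were among the 12 above and the other was Lamp1, while Laptm5 was not tested. With the mean over a gene's probes 12 were higher (8.46%), with every probe as a feature 9 (6.86%), and from the authors' deposited values only Gusb and Laptm5 (3.5%). Without replicate 1 the count was 11 (11%). Over the 9 alternatives that keep all 4 arrays, median centring included, Gusb was called in all 9, and Laptm5 in the 8 that tested it. Fuca1 and Grn were called in 7 of 9, Gm2a and Scarb2 in 5, Hexa and Man2b1 in 4, Glb1 in 3, and Smpd1, Psap and Laptm4a in 2.

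**Figure D5:**
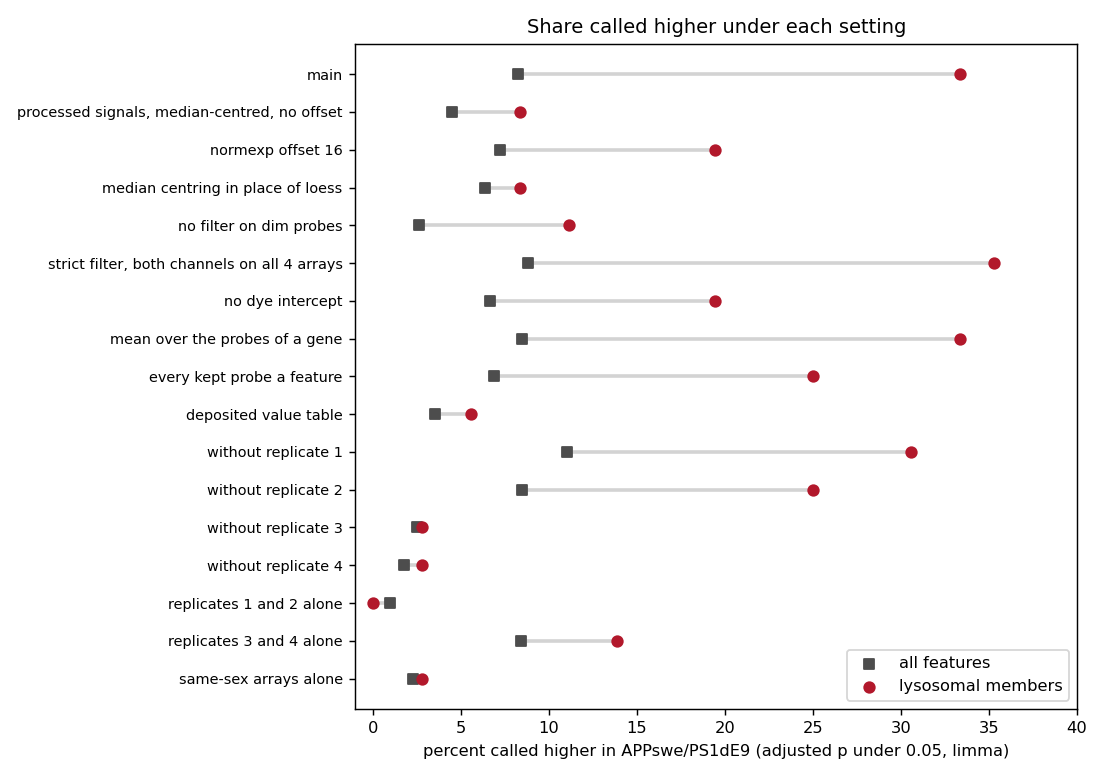
Percentage called higher in APPswe/PS1dE9 (x axis) under each setting (rows), for the lysosomal genes (circles) and for all features (squares); main is the setting used in the text. The circles stand for 12 of 36 genes in that setting, 0 on replicates 1 and 2 alone, and 1 without replicate 3 or 4, where circle and square lie close together.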

How the data were processed

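The authors deposited, per the file headers, the spot intensity of Agilent 2-colour arrays read with Agilent Feature Extraction 11.0.1.1, as median foreground and background intensity per channel, and processed signals that the software had background-corrected and dye-normalized. A deposited value table of log2 ratios without stated centring or direction was used as an alternative. Its columns, set against the log10 ratios of Cy5 over Cy3 that Feature Extraction wrote per the file headers, were log2 Cy3 over Cy5 on replicates 1 and 2 and the reverse on replicates 3 and 4, so APPswe/PS1dE9 over WT throughout; their medians were -0.08, -0.16, -0.04 and -0.04.

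Median intensities were corrected with normexp (offset 50) and loess within arrays, control and outlier spots having weight 0. Replicate spots were averaged. Probes entered when, in either genotype, 3 or more arrays had them well above background (26912 of 55681 probes), and the brightest kept probe stood for a gene. limma 3.58.1 in R 4.3.3 was fitted to genotype with an intercept for the dye (2 residual and 4.13 prior degrees of freedom), Benjamini-Hochberg over 20591 features. Its script was tested on simulated data. Between 47.5% and 59.6% of 59305 spots were well above background in a channel. Only 4 arrays limit the precision. Names came from RefSeq accessions (27509 probes matched). A level is never compared between probes.

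Every member is accounted for; values on each array are given for called members whose sign was the same on every array, and for the highest and lowest member of each role group. Psap, Lamp1, Lamp2, Sgsh and Idua were named beside these after their values were seen. Members, lists and tests were chosen with earlier results of these data known, and support nothing as independent evidence. Alternatives are given in the closing section. Some genes of the further hydrolases are not reported here, and the counts of that list leave them out.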

Additional observations from a re-analysis of the deposited data

Results flagged for a closer look

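Among the 36 lysosomal genes, 4 had 1 array far from the other 3, by Dixon's ratio above its critical value for 4 values; chance alone does this in about 1 of 20 groups of 4. Fuca1 had a log2 ratio of 0.31 on replicate 2 and 0.41 to 0.43 on the others. Galns had 0.41 on replicate 3 and -0.04 to 0.02 on the others. Arsb had 0.37 on replicate 4 and 0.12 to 0.15 on the others. Tfeb had 0.86 on replicate 1 and 0.06 to 0.16 on the others. Only Fuca1 among these was called, and it was called without replicate 2 as well. The cause was not tested.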

How the results depend on the processing

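The number of the 36 genes called higher was 3 with the scanner software's processed signals, 7 with a normexp offset of 16, 3 with median centring, 4 without the filter on dim probes, 7 without the dye term, 2 in the deposited value table, 0 on replicates 1 and 2 alone, 5 on replicates 3 and 4 alone, 1 on the same-sex arrays and 1 to 11 without 1 replicate. It was 12 with the strict filter (Lamp1 gained, Laptm5 not tested) and with the mean over probes, and 9 with every probe as a feature. No setting called any of the 36 lower, with 0.0194% to 6.35% of all features lower. Median centring and the deposited table shift the median of all features to -0.07 and -0.06.

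The median of all 36 was 0.21 with processed signals, 0.032 with median centring, 0.21 with the mean over probes and 0.16 to 0.22 without 1 replicate. The hydrolase median was 0.21 with processed signals, 0.19 with offset 16, 0.11 with median centring, 0.21 with the mean over probes, 0.15 in the deposited table, 0.17 on replicates 1 and 2, 0.19 on replicates 3 and 4, 0.21 on the same-sex arrays and 0.17 to 0.22 without 1 replicate. The membrane median was 0.31 with processed signals and 0.044 with median centring, and the pump median -0.088 with median centring and 0.0062 on replicates 3 and 4.

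Signs turned in genes that were not called, Psap apart. With median centring Gaa was at -0.016, Neu1 -0.014, Galns -0.011, Sgsh -0.10, Idua -0.018, Ids -0.11, Lamp2 -0.0015, Atp6v0a1 -0.025, Atp6v0c -0.058, Atp6v0d1 -0.12, Atp6v1a -0.088 and Atp6ap1 -0.020. On replicates 1 and 2 Neu1 was at -0.0022, Sgsh -0.48, Idua -0.090, Mcoln1 0.15 and Atp6v1b2 0.16; on replicates 3 and 4 Lipa was at -0.016, Psap -0.039 and Atp6v0a1 -0.12. On the same-sex arrays Galns was at -0.015 and Sgsh at -0.034. Lipa was at -0.046 with processed signals and -0.11 in the deposited table, where Ids was at -0.0089. Without 1 replicate Galns ranged from -0.012 to 0.22, Sgsh from -0.059 to 0.24, Atp6v1b2 from -0.044 to 0.0024 and Atp6v0d1 from -0.0087 to 0.088. Leaving out replicate 3 or 4, the count fell to 1; the cause was not tested.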
